A study of Drosophila melanogaster with 4 samples.

Results

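The small heat shock protein genes described here are the 8 listed genes *Hsp22*, *Hsp23*, *Hsp26*, *Hsp27*, *Hsp67Ba*, *Hsp67Bb*, *Hsp67Bc* and *l(2)efl*, out of 10843 genes that had a named probe set on the array. They were chosen by gene family, and their probe sets were found through the platform's annotation. *Hsp26*, *Hsp27* and *l(2)efl* had 1 probe set each. *Hsp22* and *Hsp67Bb*, whose current symbol is *CG4456*, overlap in the genome and had 3 probe sets that carried both names, so a signal there cannot be assigned to either gene. No named probe set was found for *Hsp23*, *Hsp67Ba* or *Hsp67Bc*, and these 3 genes were not analysed here. That left 6 probe sets of 13966, all of which were bright enough to be tested. *l(2)efl* lies on chromosome arm 2R and the other 7 genes lie together at 67B on 3L.

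RNA came from whole *Drosophila melanogaster* embryos aged 3 to 5 h at 25 °C. The wild-type group was the yw stock. The mutant group came from mothers with *how* germline clones, and homozygous mutant embryos, which lack maternal and zygotic HOW, an RNA-binding protein of the STAR family, were told from their siblings by a balancer chromosome that carries GFP. Each group had 2 Affymetrix arrays, and the RNA of each array pooled 5 preparations of about 100 embryos, so the spread between single preparations was not measured. The *how* allele is not given in the labels, and no probe set was named *how*, so these signals do not check the labelled genotype. The labels describe sorting under a fluorescence microscope for the mutants, so sorting, stock and genotype cannot be told apart. Of 15 patterning genes active at this age, among them *twi* and *sna*, all were bright enough to be tested.

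Small heat shock proteins form large assemblies that hold unfolding proteins in a soluble state, without ATP, until the Hsp70 system can refold them. Most share an alpha-crystallin domain. In *Drosophila* the genes at 67B are switched on by heat through the heat shock factor Hsf, and some are also transcribed without heat, in response to ecdysone or in the nurse cells of the ovary, from which *Hsp26* and *Hsp27* RNA passes into the egg. *Hsp67Bb* stands apart, since its product has a rhodanese domain in place of the alpha-crystallin domain.

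The main question was whether these genes differed between mutant and wild-type embryos. *Hsp27*, whose product is found in the nucleus, rose 3.20-fold in the mutant. No other member passed the test: *Hsp26* lay 1.53-fold higher and *l(2)efl* 1.60-fold lower in the mutant, and the 3 probe sets shared by *Hsp22* and *Hsp67Bb* went in both directions. Thus 1 of 6 probe sets changed, against 3.04% of the 8380 probe sets tested (1.75% higher and 1.29% lower; limma's moderated test, with p-values adjusted by Benjamini and Hochberg's method over all of them, threshold 0.05). In whole embryos, a change in the number of cells that hold a transcript and a change in its amount per cell cannot be told apart.

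The signal of *Hsp27*, a linear value that MAS5 computes from the probes of a set, went from 235 and 239 on the yw arrays to 773 and 743 on the mutant arrays. Both mutant arrays were far above both wild-type arrays, and within each group the arrays lay close together. The means were 237 ± 3.19 in wild type and 758 ± 21.3 in the mutant (SD, n = 2). The log2 change, mutant minus wild type, was 1.68 ± 0.15 (SE), with a 95% interval from 1.33 to 2.03 and a limma adjusted p of 0.00157. Ordered by p, *Hsp27* was number 26 of the 8380 probe sets tested, and 52 probe sets had a larger rise. The log2 ratio was 1.72 between the arrays numbered 1 and 1.63 between those numbered 2. The call held without any 1 of the 4 arrays, and was lost when dim probe sets were kept in the test (limma adjusted p = 0.0891), a setting in which no probe set passed.

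*Hsp26*, which encodes a cytosolic chaperone, gave 136 and 138 on the yw arrays, against 173 and 252 on the mutant arrays. The groups did not overlap, but the mutant arrays lay far apart. The log2 change of *Hsp26* was 0.61 ± 0.25 (SE), with a 95% interval from 0.04 to 1.18 (limma adjusted p = 0.282; unadjusted p = 0.0395). The interval includes changes as large as a doubling, so a rise of that size was not resolved with these arrays. The value depended on the mutant arrays, and was 0.34 without mutant array 2 and 0.88 without mutant array 1.

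*l(2)efl*, a relative of the vertebrate alphaB-crystallin gene, was the one member with its own probe set that lay lower in the mutant. Its signals were 177 and 157 on the yw arrays, against 112 and 96.1 on the mutant arrays, with no overlap between the groups. The log2 change of *l(2)efl* was -0.68 ± 0.24 (SE), with a 95% interval from -1.24 to -0.12 (limma adjusted p = 0.215; unadjusted p = 0.0231). The log2 ratio was -0.65 for the arrays numbered 1 and -0.71 for those numbered 2.

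**Figure D1:**
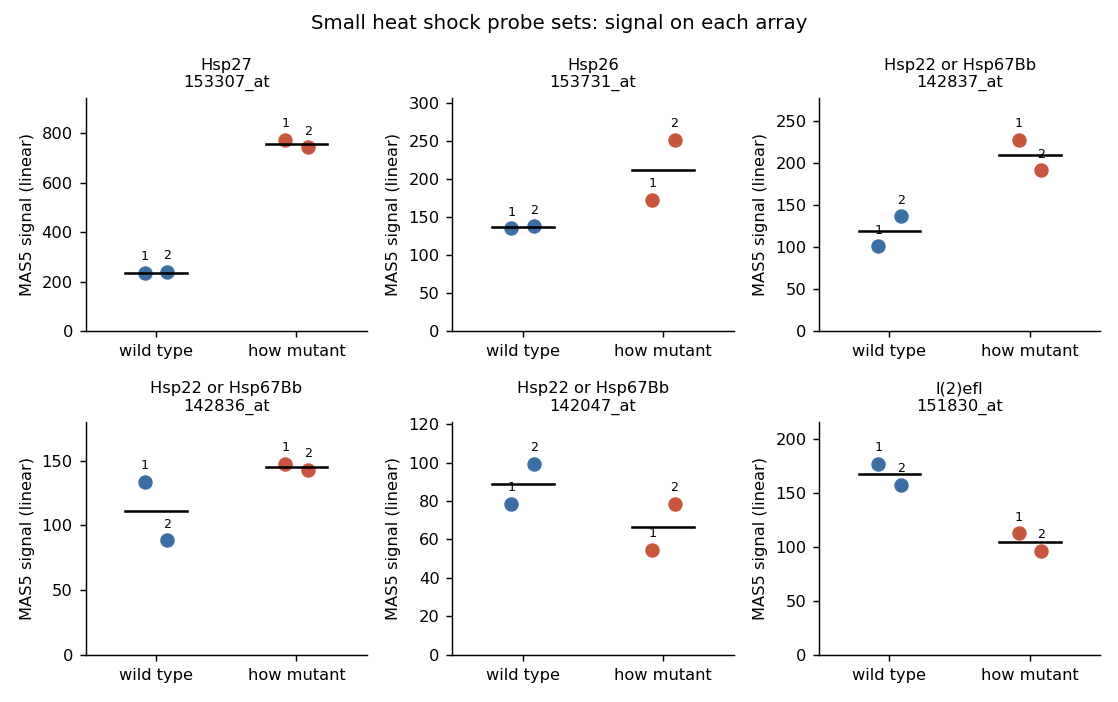
MAS5 signal (linear, each axis from 0) of the 6 small heat shock probe sets on each array; points are arrays with their replicate number, and lines are group means (n = 2). *Hsp27* goes from 235 and 239 to 773 and 743, while the other probe sets differ by smaller amounts and in both directions.

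*Hsp22*, whose product works in mitochondria, and *Hsp67Bb* were measured together. Probe set 142837_at gave 101 and 137 on the yw arrays, against 227 and 191 on the mutant arrays. Probe set 142836_at gave 134 and 88.5, against 148 and 143. Probe set 142047_at gave 78.6 and 99.4, against 54.6 and 78.4. The first and second were thus higher and the third lower in the mutant, although all 3 carry the same pair of gene names. Their log2 changes were 0.83 ± 0.25, 0.42 ± 0.28 and -0.43 ± 0.35 (SE), and none passed (limma adjusted p = 0.147, 0.526 and 0.607). Single arrays moved 142836_at and 142047_at: without 1 array the change of 142836_at ran from 0.12 (wild-type array 2 left out) to 0.71 (wild-type array 1 left out). That of 142047_at ran from -0.70 (mutant array 2 left out) to -0.17 (mutant array 1 left out), with -0.27 when wild-type array 2 was left out.

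The change of 142837_at exceeded that of 142047_at by 1.26 ± 0.39 on the log2 scale (SE, n = 2 arrays a group), with a two-sided exact permutation p of 0.333. That is the smallest p that 2 arrays against 2 can give, so this design cannot resolve whether the probe sets differ. Which of the overlapping transcripts each probe set reads was not analysed here. The mean of the 3 probe sets gave a log2 change of 0.27 (limma adjusted p = 0.633).

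In all 6 probe sets the signals of the groups were fully apart, with 4 higher and 2 lower in the mutant. This was also the case for 46.8% of all probe sets tested, 23.9% higher and 23% lower, and 3 of the 6 share a pair of overlapping genes. At an unadjusted p under 0.05 stood 4 of 6, against 16.1% of all probe sets. Taking the brightest probe set of the shared pair, the median log2 change of the 4 measured genes or gene pairs was 0.72, against 0.00 over all probe sets tested. With the 3 shared probe sets averaged it was 0.44.

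**Figure D2:**
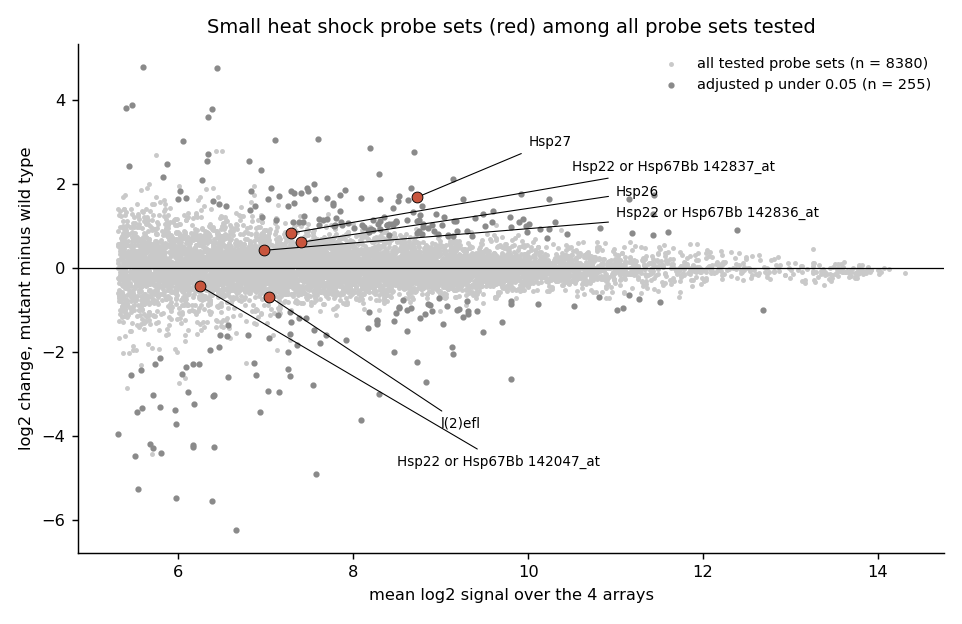
Log2 change (mutant minus wild type) against mean log2 signal over the 4 arrays for all 8380 probe sets tested, with the 6 small heat shock probe sets in red and the 255 probe sets at an adjusted p under 0.05 in dark grey. *Hsp27*, at 1.68, lies among the changed probe sets, and the other 5 lie within the grey cloud between -0.68 and 0.83.

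The next comparison set single members against the cluster at 67B. The log2 signal of *Hsp27* minus the median of *Hsp26* and the brightest shared probe set went from 1.01 and 0.80 on the yw arrays to 1.96 and 1.76 on the mutant arrays. Only the shift between groups can be read from these values, since probe sets differ in brightness for their own reasons. The shift was 0.96 ± 0.14 on the log2 scale (SE, n = 2), and both mutant arrays stood above both wild-type arrays. Its two-sided exact permutation p was 0.333, the smallest this design allows, so the test cannot resolve whether *Hsp27* and the other genes at 67B differed in their change. Set against *Hsp26* alone, the difference was 1.07, and with *CG4461* added to the comparison genes it was 1.24; both comparisons were added after the values were seen.

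The same measure for *l(2)efl* against the 3 measured units at 67B gave -1.49 ± 0.21 (SE, n = 2; two-sided exact permutation p = 0.333). This value includes the higher signals of the 67B units in the mutant, since *l(2)efl* on its own changed by -0.68. On every mutant array *l(2)efl* stood lower, relative to the 67B genes, than on either wild-type array. *Hsp26* against its neighbours in the cluster gave -0.64 ± 0.36 (two-sided exact permutation p = 0.333), a value that includes the rise of *Hsp27* in the genes it was set against. The shared *Hsp22* and *Hsp67Bb* probe set gave -0.31 ± 0.32 (two-sided exact permutation p = 0.667), and its arrays overlapped.

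Genes beside the cluster were then examined. Within it lies *CG4461*, a further alpha-crystallin gene, between the *Hsp22* and *Hsp67Bb* pair and *Hsp26*. *CG4461* gave 133 and 126 on the yw arrays, against 172 and 125 on the mutant arrays, so the groups overlapped, and its log2 change was 0.18 ± 0.25 (SE; limma adjusted p = 0.80). *Fdx1*, a ferredoxin gene next to *Hsp67Bc*, had a log2 change of 0.15, and *CG4080*, the next protein-coding gene beyond *Hsp27*, one of 0.01.

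Counting 20 kb on each side, 10 genes that are no members had a named probe set and 9 were tested. None of the 9 passed limma's test at an adjusted p under 0.05, against 3.04% of all probe sets tested. An unadjusted p under 0.05 was found for 2 of the 9, the kinesin gene *Klp67A* (-0.58) and *UGP* (0.52), against 16.1% of all probe sets tested. The median log2 change of the 9 was 0.15. The other values were 0.30 for *CG34456*, 0.12 for *CG4452*, 0.29 for the translation initiation gene *eIF4E1* and -1.14 for the cuticle gene *Cpr67B*. The last rests on 1 array: *Cpr67B* gave 75.8 and 82.1 on the yw arrays, against 18.2 and 70.1 on the mutant arrays, and its log2 change was -0.17 without mutant array 1 and -2.12 without mutant array 2. *mRRF1*, at 9.94 ± 0.33 in wild type and 37.2 ± 9.57 in the mutant (SD, n = 2), lay under the limit for testing. *Hsp27* was thus the 1 tested gene in this interval that passed. With 3.04% of all probe sets passing, the lack of a call among 9 neighbours says little about them.

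**Figure D3:**
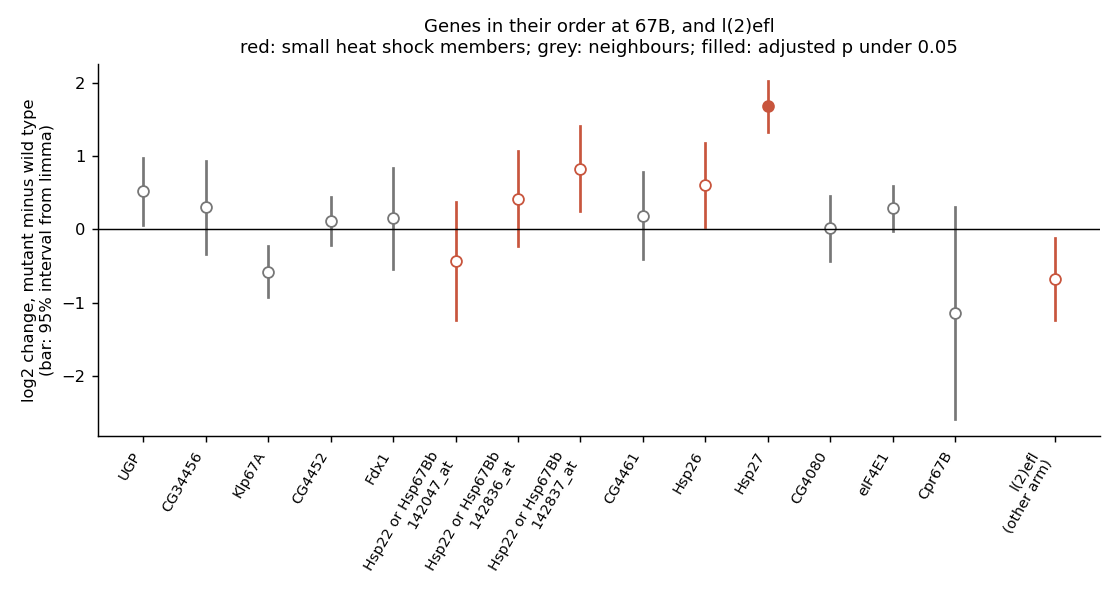
Log2 change with limma's 95% interval for the tested genes in their order at 67B (not to scale), followed by *l(2)efl* from another arm; small heat shock members are red, neighbours grey, and filled points passed the test. *Hsp27* at 1.68 is the filled point, while *CG4461*, *Fdx1* and *CG4080* lie between 0.01 and 0.18.

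Other genes of the heat shock response and of stress were compared as lists, beside 3.24% of the 6854 tested genes that changed, 1.87% higher and 1.37% lower in the mutant. Of 17 tested genes of Hsf and chaperones 3 rose and 0 fell, with a median log2 change of 0.29 against 0.00 over all tested genes. Those that rose were *Hsc70-2*, a constitutive relative of Hsp70 (4.74), *Fkbp59*, an immunophilin gene (1.10), and *CG11267*, which the gene table also lists as Hsp10, the mitochondrial co-chaperonin (0.71). *Hsc70-2* passed the filter through its mutant arrays, since its wild-type mean of 16.9 lay under the limit of 39.5; the size of its rise is therefore uncertain, and with 50 added to every signal it was 2.90. The calls for *Fkbp59* and *CG11267* were lost without any 1 array and in a fit without the mean-variance trend, and that for *CG11267* under median centring. *Hsf* itself, which encodes the transcription factor that drives the heat-inducible genes, gave 562 and 479 on the yw arrays, against 416 and 485 on the mutant arrays, and a log2 change of -0.21 (limma adjusted p = 0.613).

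Heat-inducible genes outside the family gave values on both sides of 0. *Hsp68*, an inducible member of the Hsp70 family, had a log2 change of 0.42, the co-chaperone gene *DnaJ-1* one of -0.22, and *stv*, whose product links small heat shock proteins to Hsp70 in a complex that clears damaged proteins, one of -0.43 (limma adjusted p = 0.662, 0.487 and 0.624). For *stv*, given by the brighter of its 2 probe sets, the groups overlapped. Its log2 ratio was 0.25 for the arrays numbered 1 and -1.12 for those numbered 2. *Hsp68*, at 48.4 ± 2.24 in wild type and 65.3 ± 11.6 in the mutant (SD, n = 2), was close to the level under which probe sets were left out (39.5). The *Hsp70* genes and *Hsp83* were not analysed here. Of the other alpha-crystallin genes, 2 were tested, *CG4461* and *CG13133* (0.18 each), and neither passed limma's test or had an unadjusted p under 0.05. Both values turned negative without mutant array 1, at -0.05 and -0.23.

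Among 16 tested genes of oxidative stress and stress signalling 2 rose and 0 fell (median 0.17). They were *GstD1*, a glutathione transferase gene (1.03), and *Cat*, the catalase gene (0.75). Leaving out either mutant array lost both calls, and leaving out either wild-type array lost that for *Cat*. Both were lost without the mean-variance trend, and *Cat* under median centring. *foxo*, whose product activates *l(2)efl* in adult flies, had a log2 change of -0.22, and *puc*, a target of the JNK pathway, one of 0.20 (limma adjusted p = 0.831 and 0.798). The largest change of the list was that of *Sesn*, at 1.60, which did not pass (limma adjusted p = 0.0671). Of the 16 genes 12 lay above 0 and 4 below, against 3445 and 3409 of all tested genes.

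Ecdysone induces several of the 67B genes, and its pathway was examined as well. Of 12 tested genes of ecdysone synthesis and response 0 rose and 2 fell, with a median log2 change of -0.38; the part of ecdysone in the values of the members was not tested. Those that fell were *ImpE2*, an ecdysone-inducible gene of imaginal discs (-1.10), and *ImpL2*, whose product binds insulin-like peptides (-0.94). The receptor genes *EcR* and *usp* gave 0.00 and -0.13 (limma adjusted p = 0.997 and 0.904). Among the synthesis genes, *dib*, *spo*, *sad* and *sro* lay lower in the mutant, at -1.03, -0.99, -0.76 and -0.62, and *shd* higher, at 0.41. None of these passed (limma adjusted p = 0.0885, 0.124, 0.160, 0.357 and 0.699). The summed signal of the 18 listed genes with a named probe set went from 5887 and 5775 to 3305 and 3611 in the mutant, and 6 of the 18 were too dim to be tested. *ImpL2* weighed most in these sums, with 2890 and 3117 on the yw arrays and 1497 and 1624 on the mutant arrays. The sums are therefore no measure of the list as a whole. Leaving out either mutant array, or the mean-variance trend, lost both calls, and leaving out wild-type array 1 lost that for *ImpE2*.

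**Figure D4:**
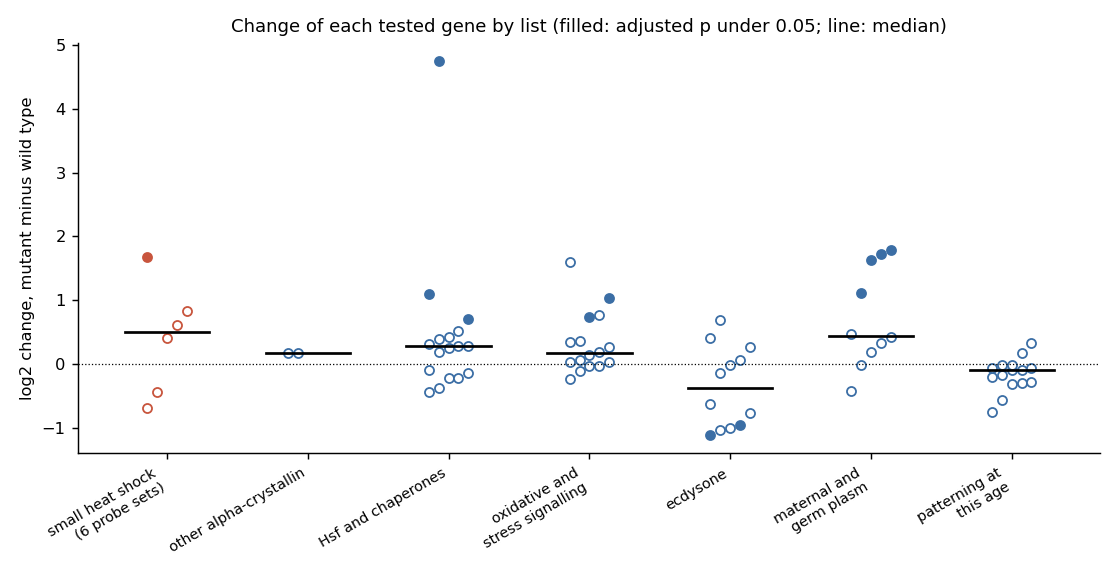
Log2 change (mutant minus wild type) of each tested gene by list, with the 6 small heat shock probe sets in red; filled points passed at an adjusted p under 0.05, and black lines are medians. *Hsp27* is the filled red point at 1.68, and the medians of the lists in blue run from -0.38 for ecdysone genes to 0.45 for maternal and germ plasm transcripts; genes of later differentiation (median -2.94) are not plotted.

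*Hsp26* and *Hsp27* RNA is loaded into the egg, so other maternal and germ plasm transcripts were set beside them. Of 10 tested genes 4 rose and 0 fell, with a median log2 change of 0.45. They were *spn-E* (1.79) and *aub* (1.11), of the piRNA pathway, the thioredoxin gene *dhd* (1.72) and *pgc*, which represses transcription in pole cells (1.64). *pgc* was dim in the yw embryos (mean 36.2, under the limit of 39.5) and passed the filter through its mutant arrays; with 50 added its change was 0.92. The summed signal of the 17 listed genes with a named probe set went from 8146 and 8832 to 9073 and 10110.2 in the mutant. *CycB* made up most of each sum, at 6414 and 7221 on the yw arrays and 6258 and 7292 on the mutant arrays. Its log2 change was -0.01, so the sums say little about the other genes. Of these 17 genes, 7 were too dim to be tested, and their group means went in both directions. *osk* went from 24.8 and 7.09 to 105 and 101, and *vas* and *fs(1)N* also lay higher in the mutant. *plu* went from 28.9 and 29.7 to 12.7 and 18.0. The means of *bcd*, *png* and *twe* also lay lower, but their groups overlapped and their log2 ratios differed in sign between replicate numbers. The groups were apart for *osk*, *vas*, *fs(1)N* and *plu*, as for 46.8% of all probe sets tested. The part of maternal transcripts in the rise of *Hsp27* was not tested. The list was chosen with earlier results for these genes known, and the call for *pgc* was lost without any 1 array, under quantile normalization and in a robust fit. A fit without the trend, or removal of either mutant array, also lost *spn-E* and *aub*, and removal of wild-type array 2 lost *aub*.

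The genes whose signals over the 4 arrays were most like those of *Hsp27* included 2 of these transcripts. Likeness was measured as the Euclidean distance between log2 signals, each gene centred on its own mean, over 6853 other genes, for which the median distance was 1.71. The nearest were *dhd* at 0.05, *CtsK1* at 0.06, *pgc* at 0.07, *Lsd-2*, a lipid droplet gene, at 0.10, and *MRG15*, a chromodomain protein gene, at 0.13. *dhd* went from 127 on both yw arrays to 427 and 413 in the mutant, and *MRG15* from 212 and 192 to 686 and 644. With 4 arrays, closeness mostly reflects a rise of like size, from 1.64 to 1.72 on the log2 scale in these 5 genes. *dhd* and *pgc* come from a list chosen with earlier results known, so their place among the 5 is no separate result. *pgc* was also dim in the yw embryos (mean 36.2).

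Markers of embryo age were examined last. Of 15 tested genes of later differentiation 12 fell and 0 rose, among them *Osi6*, *TwdlN*, *Mlc1* and *Ccp84Ag* (-6.22, -5.55, -4.48 and -4.40), and the summed signal of the 17 measured went from 6370 and 6416 to 918 and 1038. Most of that list had been picked from the strongest falls in earlier results of these data, so its count supports no direction of its own. For 7 of the 12, these 4 included, the mutant mean lay under the limit for testing, so the sizes are uncertain. With 50 added the 4 changed by -3.87, -3.32, -2.13 and -2.28. *TwdlN* had 2 probe sets, and with both averaged and no constant added its change was -4.42. The calls for *Mlc1* and *Ccp84Ag* were lost after removal of either wild-type array. Of the 15 patterning genes none passed limma's test and none had an unadjusted p under 0.05. Their median was -0.09, and *ftz* (0.34) and *htl* (-0.75) had the smallest p. Below 0 lay 13 of the 15 and above 0 lay 2, against 3409 and 3445 of all tested genes. The summed signal of the 15 went from 8037 and 8174 to 7892 and 6980.3. The part of embryo age in the values of *Hsp27* and *l(2)efl* was not tested.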

How the data were processed

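The deposited table holds 1 signal intensity per probe set and array; per the submitters' processing notes it was made with MAS5, with no version or settings given there. The linear intensity values had been scaled by the authors: without the highest and lowest 2%, the mean was 250.04 on each array. Signals under the 5th percentile (3.38) were raised to it before taking log2. The 44 control probe sets, and those with a mean under the 40th percentile (39.5), were left out of tests, which kept 8380. Tests used limma 3.58.1 in R 4.3.3 with a mean-variance trend on all 4 arrays (residual degrees of freedom 2, prior 5.80), and the steps were tested on simulated data. The number of arrays limits the precision.

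Symbols came from the platform annotation, updated by Entrez ID to RefSeq's Release 6 plus ISO1 MT. Of 13966 gene probe sets, 12442 had 1 symbol, 327 several and 1197 none; 12393 of the first were matched. A gene is represented by its brightest probe set. The genes named are all members, the neighbours at 67B, and from each list up to 4 passing genes by size or the 2 with the smallest p; for members that passed, the 5 nearest genes. *Hsf*, *Hsp68*, *DnaJ-1*, *stv*, *foxo*, *puc*, *EcR*, *usp*, *osk*, *twi* and *sna* were added for their roles after their values were seen. *CycB*, *Sesn*, the ecdysone synthesis genes and the other dim maternal genes were also added after their values were seen. The members and lists were chosen with earlier results of these data known. Alternatives were the replicate block, scaling, filters, an added constant, variance settings, averaged probe sets, the threshold and leaving out each array.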

Additional observations from a re-analysis of the deposited data

How the results depend on the processing

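The change of *Hsp27* kept its sign and its call in 13 of 14 alternatives (log2 1.49 to 1.71; limma adjusted p from 5.19e-07 to 0.0891). No member reversed. With no filter, where the prior degrees of freedom fell to 1.87, 0 members, 0 listed genes and 0 of all probe sets passed; the cause was not tested. With the replicate block 2 members passed, *Hsp27* and the shared probe set 142837_at (limma adjusted p = 0.0484), as did the neighbour *Klp67A* (0.00606) and 825 of all probe sets. The labels do not say that the number marks a batch, so the block is not a main result. Deviations of same-numbered arrays correlated with r = 0.183 across probe sets. Whether arrays of the same number share a batch was not tested. Of all probe sets 255 passed, 401 at an adjusted p under 0.1, 95 with no mean-variance trend and 87 to 153 without 1 array (153 and 140 without wild-type array 1 or 2, 117 and 87 without mutant array 1 or 2). Of listed genes 23 passed, 14 with the filter at the 60th percentile, which tests fewer genes, 12 without the trend and 13 to 15 without 1 array. *Hsp27* exceeded the others at 67B by 0.85 to 1.06 without 1 array and by 1.24 with averaged probe sets. Values near 0 changed sign: *CG4080* was -0.0026 with quantile normalization, -0.0037 with median centring and -0.17 to 0.20 without 1 array (negative without mutant array 2). Without 1 array *Fdx1* ran from -0.056 to 0.36 (negative without mutant array 2), *CG4461* from -0.046 to 0.41 and *CG13133* from -0.23 to 0.58 (both negative without mutant array 1). A lone array of a group is assumed to vary like the other group.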
